A study of Rattus norvegicus with 4 samples.

Results

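Collagen chain genes encode the polypeptides from which all collagens are built. They were taken as the rows of the deposited gene table whose symbol is Col, a type number, the letter a and a chain number, which gave 27 of 13554 genes. By class these were 10 fibrillar chains, 4 FACIT chains (fibril-associated collagens with interrupted helices), 4 network chains, 2 beaded-filament chains, 3 transmembrane chains, 2 multiplexins and 2 others. RNA had been sequenced from articular cartilage, the lining of joint surfaces, and from xiphoid cartilage, the tip of the sternum. Both groups came from Sprague-Dawley rats of 8 to 10 weeks, with no treatment or transgene named in the labels, and each had 2 libraries. Neither the joint nor the number of rats per library is named in the labels, and the p-values therefore measure the spread between these libraries, which may be technical. Chains without a row, among them Col10a1, Col9a3, Col6a1, Col6a3, Col12a1 and Col4a2, were not analysed here.

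Each collagen molecule is a trimer of chains wound into a helix, and the chains of a trimer may come from the same gene or from different genes. Fibrillar collagens form the load-bearing fibrils. In hyaline cartilage the fibril is mainly type II collagen, with type XI collagen in its core and type IX collagen, a FACIT, on its surface, whereas types I, III and V make the fibrils of bone, tendon, skin and perichondrium. Network collagens form sheets such as the type IV collagen of basement membranes, and type VI collagen forms the beaded filaments around chondrocytes and other cells.

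The libraries held 7351006 to 8434820 expected counts, an expected count being the authors' estimate of the reads of a gene. All 10 chondrocyte markers examined, such as Acan and Matn3, were detected in both tissues, with a summed level of 19695 and 20192 CPM (counts scaled to a common library size) in the articular and 36808 and 38261 CPM in the xiphoid libraries. Cytl1 alone gave 20832 and 21656 CPM of the xiphoid sums, and without it the sums were 19200 and 19747 CPM in articular and 15976 and 16605 CPM in xiphoid cartilage, so that their order turned. Acan was then the largest part, at 8429 and 7806 CPM in articular and 5935 and 5650 CPM in xiphoid cartilage. The test described below called 4 of the 10 toward each tissue, beside 25.0% and 24.5% of all genes tested. Neither order therefore describes the list. Other cell types were represented too. The 9 osteoblast and osteocyte markers summed to 4264 and 3039 CPM in articular and 24.6 and 23.7 CPM in xiphoid cartilage, where Phex and Sost had no count. The 10 skeletal muscle markers summed to 305 and 237 CPM in articular and 8780 and 9149 CPM in xiphoid cartilage. The 9 fibroblast and perichondrium markers summed to 1207 and 1273 CPM in articular and 14807 and 13637 CPM in xiphoid cartilage, with the gelsolin gene Gsn as most of the xiphoid sum. Without Gsn they summed to 856 and 935 CPM in articular and 928 and 898 CPM in xiphoid cartilage, which overlapped. Dcn was most of that articular sum, at 720 and 805 CPM against 442 and 488 CPM in xiphoid cartilage. Neither sum therefore describes the list as a whole. In dissected tissue of this kind, fewer cells of a type and less RNA per cell cannot be told apart.

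Transcripts of the collagen chains with a row took a larger share of the articular libraries, and the gap lay in Col2a1. All 27 chains together took up 12.8% and 10.8% of the counts in articular and 4.1% and 3.73% in xiphoid cartilage. Without Col2a1 the other chains held 2.54% and 2.21% in articular and 2.45% and 2.25% in xiphoid cartilage, so that the tissues overlapped. Chains without a row, such as Col9a3, Col6a1 and Col12a1, are in none of these shares. The makeup of that remainder was not the same. Col11a1, Col11a2 and Col9a1, chains of the cartilage fibril, took more of it in articular cartilage, and Col3a1 and Col8a1 took more of it in xiphoid cartilage. These shares are of reads and are not corrected for transcript length, and with 2 libraries against 2 an exact permutation test cannot give a p below 0.33.

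**Figure D1:**
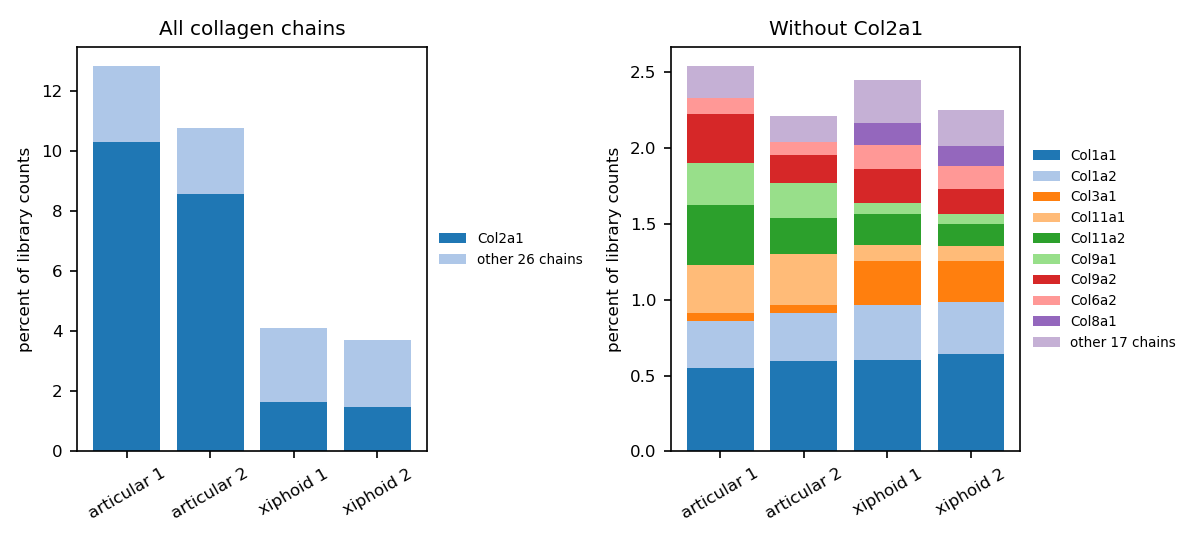
Percent of each library's counts held by collagen chains; the left panel separates Col2a1 from the other 26 chains and the right panel shows those 26 alone. The articular bars reach 12.8% and 10.8% on the left, while on the right all 4 bars lie between 2.21% and 2.54% with different makeup.

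Each gene was compared between the tissues with edgeR's quasi-likelihood test across all genes, with Benjamini-Hochberg adjustment and a threshold of 0.05. Log2 fold changes are articular over xiphoid, so that a value above 0 is an articular excess. Of the 27 chains, 23 passed the filter on low counts. Among these, 6 passed with more transcript in articular cartilage, 11 passed with more in xiphoid cartilage and 6 passed in neither direction. Over all 11202 genes tested, 25.0% were higher in articular and 24.5% higher in xiphoid cartilage, and 49.5% were called in either direction. The median log2 fold change was -0.62 over the tested chains and -0.02 over all genes tested. A fitted fold above 4 was called for 8 chains, 2 higher in articular and 6 higher in xiphoid cartilage, against 12.8% of all genes tested. The 2 articular and 2 xiphoid libraries did not overlap in 21 of the 23, against 74.9% of all genes tested. Of the 23 chains, 4 passed the filter through 1 tissue only, Col13a1 through articular and Col7a1, Col17a1 and Col23a1 through xiphoid cartilage. A chain that low in 1 tissue was tested only because it was higher in the other. The counts therefore describe the chains that passed and not the whole family.

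**Figure D2:**
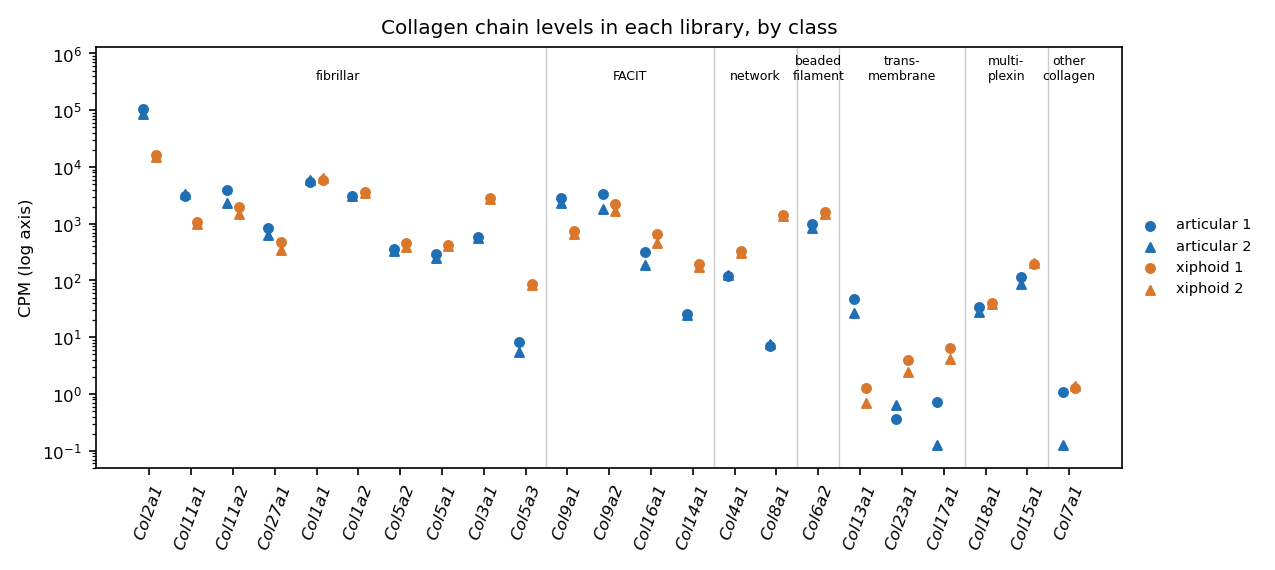
Level of each of the 23 tested chains in CPM on a log axis, with articular libraries in blue and xiphoid libraries in orange, grouped by collagen class. Col8a1 shows the widest gap, with 6.94 and 7.45 CPM in articular and 1430 and 1374 CPM in xiphoid cartilage.

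Promoter sequences are shown for 5 chains of contrasting behaviour. Col11a1 and Col9a1 had an articular excess, and Col8a1, Col5a3 and Col4a1 a xiphoid excess. They were chosen after their values were seen. They come from RefSeq (assembly GRCr8), in which 22 of the 27 chains were matched, all but Col2a1, Col1a1, Col3a1, Col6a2 and Col14a1. Each runs 5′ to 3′ on the gene's strand from 250 bases before to 50 bases after the annotated start. Col11a1 lies at chr2:204508886-204509185 on the plus strand, Col9a1 at chr9:34081114-34081413 on the plus strand, Col8a1 at chr11:56246532-56246831 on the plus strand, Col5a3 at chr8:27625899-27626198 on the minus strand and Col4a1 at chr16:84885347-84885646 on the plus strand. Capitals mark matches, on either strand, to 4 short motifs. The GC box was searched as GGGCGG. The second motif was the CCAAT box. The TATA box was searched as TATAAA, and the core bound by SOX factors as AACAAT.
Col11a1: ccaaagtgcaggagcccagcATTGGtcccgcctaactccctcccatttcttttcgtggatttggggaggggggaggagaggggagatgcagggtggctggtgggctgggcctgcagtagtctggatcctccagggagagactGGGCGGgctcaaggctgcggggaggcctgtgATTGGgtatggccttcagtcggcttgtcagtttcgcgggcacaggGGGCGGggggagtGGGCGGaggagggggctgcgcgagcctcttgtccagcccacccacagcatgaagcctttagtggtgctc
Col9a1: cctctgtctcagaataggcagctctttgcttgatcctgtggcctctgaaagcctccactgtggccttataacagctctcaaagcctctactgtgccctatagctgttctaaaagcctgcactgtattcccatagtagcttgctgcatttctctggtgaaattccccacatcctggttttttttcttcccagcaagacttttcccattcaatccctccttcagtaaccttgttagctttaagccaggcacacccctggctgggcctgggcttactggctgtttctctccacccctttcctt
Col8a1: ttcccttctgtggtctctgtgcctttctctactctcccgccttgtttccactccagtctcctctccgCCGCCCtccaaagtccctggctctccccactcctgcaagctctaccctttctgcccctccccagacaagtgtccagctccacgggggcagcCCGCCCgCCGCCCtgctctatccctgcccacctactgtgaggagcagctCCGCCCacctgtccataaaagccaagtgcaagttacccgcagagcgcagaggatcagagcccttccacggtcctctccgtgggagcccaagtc
Col5a3: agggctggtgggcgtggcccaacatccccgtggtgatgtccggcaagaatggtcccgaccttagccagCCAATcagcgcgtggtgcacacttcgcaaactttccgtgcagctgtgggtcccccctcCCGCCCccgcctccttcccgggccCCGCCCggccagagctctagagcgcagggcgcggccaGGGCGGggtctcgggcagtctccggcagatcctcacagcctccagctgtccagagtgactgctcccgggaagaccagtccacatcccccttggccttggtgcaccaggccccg
Col4a1: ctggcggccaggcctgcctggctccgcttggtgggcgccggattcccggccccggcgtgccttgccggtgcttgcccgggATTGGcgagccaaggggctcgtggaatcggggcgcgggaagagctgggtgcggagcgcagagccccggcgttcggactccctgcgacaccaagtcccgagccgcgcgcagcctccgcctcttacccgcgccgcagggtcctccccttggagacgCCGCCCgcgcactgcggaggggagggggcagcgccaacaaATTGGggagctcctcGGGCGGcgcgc

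The windows differed in base composition. The Col9a1 window had a GC content of 49.3% with 0 CpG dinucleotides and none of the 4 motifs, while the Col11a1 window had 64.7% GC, 11 CpG, 3 GC boxes and 2 CCAAT boxes. On the xiphoid side the Col8a1 window had 62.7% GC, 12 CpG and 4 GC boxes, the Col5a3 window 69% GC, 21 CpG, 3 GC boxes and 1 CCAAT box, and the Col4a1 window 75% GC, 38 CpG, 2 GC boxes and 2 CCAAT boxes. The median over all 33469 promoters in the RefSeq table was 51.7% GC and 7 CpG. A GC box occurred in 12 of the 22 collagen windows and in 33.1% of all promoters, and a CCAAT box in 6 of the 22 and in 37.5%. A SOX core occurred in 2 of the 22, those of Col4a3 and Col6a4, and in 11.7% of all promoters, and a TATA box in 3 of the 22 and in 14.2%. These matches describe the letters in a short window only, and chains without a window, Col2a1 among them, were not searched.

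Of the 10 fibrillar chains, 4 had an articular excess that passed, namely Col2a1, Col11a1 and Col11a2, the chains of the cartilage fibril, and Col27a1, a fibrillar chain of cartilage and the growth plate. Another 3, Col3a1, Col5a1 and Col5a3, passed with a xiphoid excess. The remaining 3, Col1a1, Col1a2 and Col5a2, passed in neither direction. Of all genes tested, 25.0% passed toward articular and 24.5% toward xiphoid cartilage.

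Col2a1 (Entrez gene 25412), which encodes the only chain of type II collagen, was at 103394 and 85673 CPM in the articular and 16347 and 14862 CPM in the xiphoid libraries. The log2 fold change was 2.60 (SE 0.17, adjusted p = 1.56e-07), the largest rise toward articular cartilage among the fibrillar chains. Col11a1, a chain that sets fibril diameter, was at 3131 and 3334 CPM in articular and 1091 and 991 CPM in xiphoid cartilage, with a tight spread in both tissues and a fold of 3.1 (adjusted p = 3.48e-06). Col11a2, its partner in type XI collagen, was at 3975 and 2352 CPM in articular and 1994 and 1469 CPM in xiphoid cartilage. The groups did not overlap, but the articular libraries lay further apart than the nearest libraries of the 2 tissues, and the fold was 1.83 (SE 0.25 on the log2 scale, adjusted p = 0.0138). Col27a1 was at 837 and 626 CPM in articular and 469 and 345 CPM in xiphoid cartilage (1.8-fold, adjusted p = 0.00277). Neither Col11a2 nor Col27a1 passed a test against a fold of 1.5 (edgeR glmTreat, adjusted p = 0.137 and 0.0935).

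For type I collagen, the main collagen of bone and tendon, no difference passed the test. Col1a1 was at 5516 and 5979 CPM in articular and 5961 and 6495 CPM in xiphoid cartilage, and the ranges overlapped. Its log2 fold change was -0.12 (SE 0.15, adjusted p = 0.562). Col1a2 was at 3099 and 3140 CPM in articular and 3633 and 3432 CPM in xiphoid cartilage (log2 fold change -0.18 with an SE of 0.15, adjusted p = 0.345). Type I transcripts are made by both osteoblasts and fibroblasts. All 9 osteoblast and osteocyte markers were higher in articular cartilage, although 6 of them passed the filter on low counts only there. Over all genes tested, 25.0% were called toward articular and 24.5% toward xiphoid cartilage. Of the 9 fibroblast and perichondrium markers, 6 passed toward xiphoid and 1 toward articular cartilage, and 2, Pdgfra and Thy1, in neither direction. The articular call was Dcn, the decorin gene, at 720 and 805 CPM in articular and 442 and 488 CPM in xiphoid cartilage (adjusted p = 0.0018). Their part in the type I values was not tested.

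Col3a1 (Entrez gene 84032), the chain of type III collagen of stretchable connective tissue, was at 580 and 566 CPM in the articular and 2834 and 2731 CPM in the xiphoid libraries. The xiphoid level was 4.86 times the articular level (adjusted p = 1.7e-07, log2 fold change -2.28, SE 0.15), with libraries of a tissue close to each other. Col5a3, a minor chain of type V collagen, was at 8.37 and 5.39 CPM in articular and 86.2 and 82.9 CPM in xiphoid cartilage. The fold was 12.2 (adjusted p = 5.91e-08), the widest gap among the fibrillar chains. Col5a1, the chain of type V collagen that starts fibril assembly, differed much less, at 291 and 249 CPM in articular and 429 and 400 CPM in xiphoid cartilage (1.54-fold, adjusted p = 0.00433). Its adjusted p was 0.0594 without xiphoid replicate 1 and 0.424 against a fold of 1.5. Col5a2, the usual partner of Col5a1, was at 353 and 334 CPM in articular and 455 and 390 CPM in xiphoid cartilage and did not pass (log2 fold change -0.30, SE 0.15, adjusted p = 0.112). The summed markers of tendon, muscle and fat were higher in the xiphoid libraries, and those of fibroblasts were higher with Gsn and overlapped without it. Most of the articular fibroblast sum left without Gsn was Dcn, at 720 and 805 CPM. Of the 9 fibroblast markers, 6 passed toward xiphoid cartilage, Dcn alone toward articular cartilage and 2 in neither direction. The tendon markers summed to 40.4 and 42.1 CPM in articular and 451 and 422 CPM in xiphoid cartilage, with 3 of 4 passing, and the 7 adipocyte markers to 55.1 and 40.2 against 2334 and 1853 CPM. Their part in the Col3a1 and Col5a3 values was not tested.

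Col3a1 and Col5a2 are neighbours in the RefSeq gene order and behaved differently. The ratio of Col3a1 to Col5a2 counts was 1.64 and 1.69 in articular and 6.24 and 7 in xiphoid cartilage. A ratio of counts between genes depends on their lengths, but the length cancels when the ratio is compared between libraries.

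**Figure D3:**
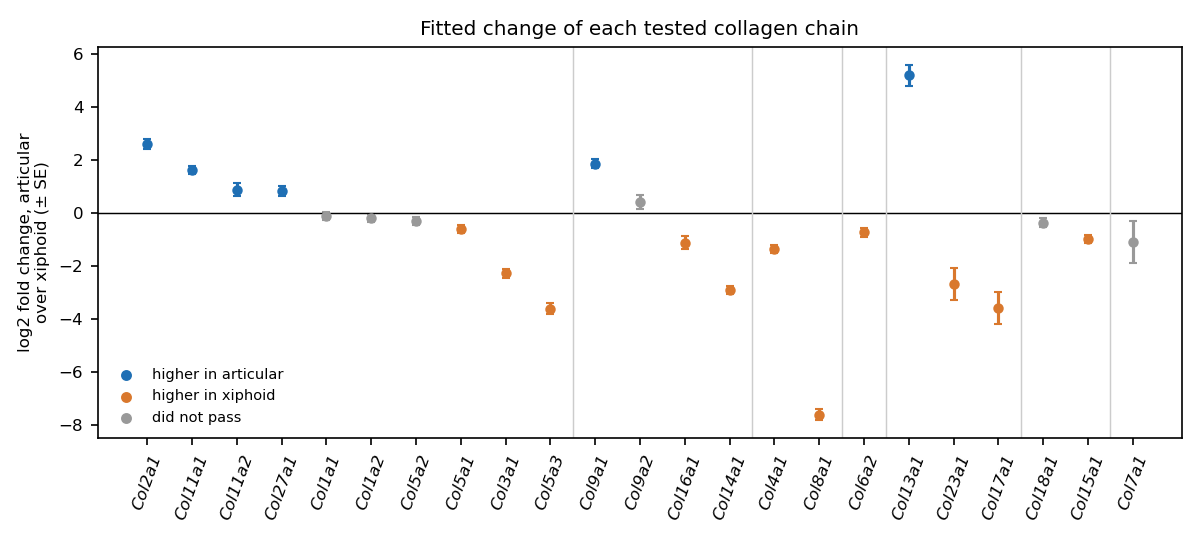
Fitted log2 fold change of each tested chain, articular over xiphoid cartilage, with bars of 1 SE, grouped by class between vertical lines and coloured by the call. Blue points (6) lie above 0, orange points (11) lie below, and grey points (6) did not pass.

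The 4 FACIT chains did not move together, with 1 articular excess, 2 xiphoid excesses and 1 chain that passed in neither direction. Among all genes tested, 49.5% were called in either direction. Col9a1, a chain of the type IX collagen on the surface of cartilage fibrils, was at 2786 and 2333 CPM in articular and 753 and 657 CPM in xiphoid cartilage (3.63-fold, log2 fold change 1.86, SE 0.17, adjusted p = 2.07e-06). Col9a2, which joins Col9a1 in the same trimer, was at 3287 and 1835 CPM in articular and 2195 and 1649 CPM in xiphoid cartilage. The tissues overlapped, since articular replicate 2 lay below xiphoid replicate 1. The log2 fold change was 0.41 (SE 0.26, adjusted p = 0.212), and it was -0.066 without articular replicate 1 and 0.78 without articular replicate 2, where it passed (adjusted p = 2.21e-04). It also passed without xiphoid replicate 1 (0.65, adjusted p = 0.0483).

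The FACIT chains outside type IX went the other way. Col14a1, a FACIT of dense connective tissue and tendon, was at 25.2 and 24.1 CPM in articular and 192 and 176 CPM in xiphoid cartilage, a fold of 7.44 with very little spread (log2 fold change -2.90, SE 0.16, adjusted p = 3.23e-08). Col16a1, a FACIT found in several matrices, was at 322 and 188 CPM in articular and 647 and 464 CPM in xiphoid cartilage (2.18-fold, SE 0.25 on the log2 scale, adjusted p = 0.00505). Libraries within a tissue were spread more widely for Col16a1 than for Col14a1. The tendon markers and 6 of 9 fibroblast markers given above moved the same way as Col14a1, Dcn moved the opposite way, and their part in its change was not tested.

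Ratios between chains that share a trimer separated some pairs and not others. Col1a1 to Col1a2 was 1.78 and 1.9 in articular and 1.64 and 1.89 in xiphoid cartilage, so that the tissues overlapped. Col9a1 to Col9a2 was 0.848 and 1.27 in articular and 0.343 and 0.398 in xiphoid cartilage, on average 2.86 times higher in articular cartilage. Col11a1 to Col11a2 was 0.787 and 1.42 in articular and 0.547 and 0.674 in xiphoid cartilage, and Col5a1 to Col5a2 was 0.825 and 0.745 against 0.943 and 1.02. In the type IX and XI pairs, the articular libraries differed from each other by a wide margin. Col9a2 and Col11a2 were lower in articular replicate 2 than in replicate 1, while Col9a1 was lower to a smaller extent and Col11a1 was not lower. The exact permutation p of the log ratio was 0.33 for the type V, IX and XI pairs, the smallest that 2 against 2 libraries can give, and 0.667 for the type I pair (2-sided). Type XI chains also trimerize with the type II chain. The ratio of Col2a1 to Col11a1 was 33 and 25.7 in articular and 15 and 15 in xiphoid cartilage, so both fell from articular to xiphoid cartilage but Col2a1 fell further. Against type I collagen the contrast was wider, with a ratio of Col2a1 to Col1a1 of 18.7 and 14.3 in articular and 2.74 and 2.29 in xiphoid cartilage. For Col5a3 to Col5a1 the ratio was 0.0288 and 0.0217 in articular and 0.201 and 0.207 in xiphoid cartilage.

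**Figure D4:**
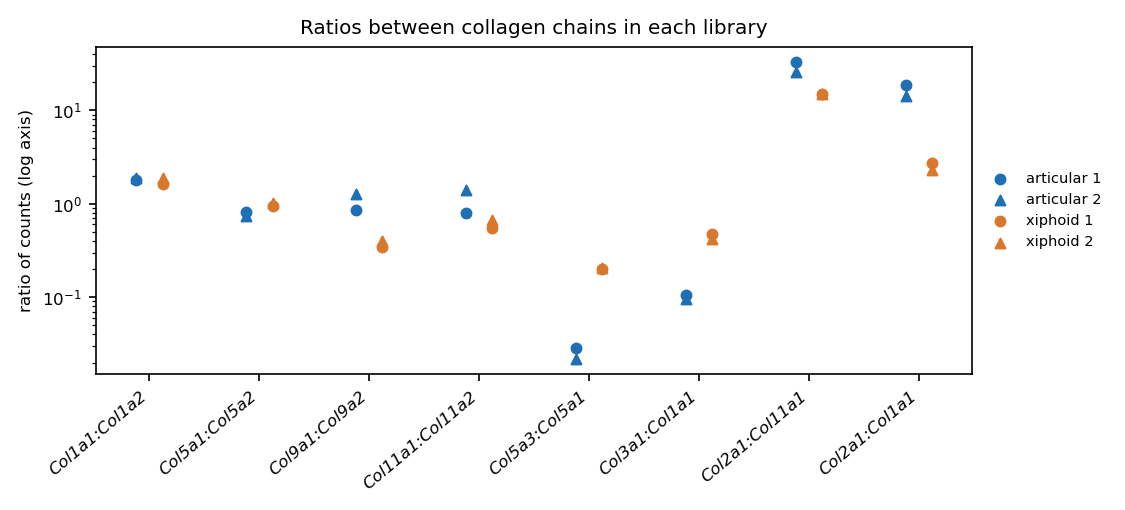
Ratio of counts between pairs of chains in each library, on a log axis, with articular libraries in blue and xiphoid libraries in orange. The Col1a1 to Col1a2 ratio stays between 1.64 and 1.9 in all 4 libraries, while Col9a1 to Col9a2 lies at 0.848 and 1.27 in articular and 0.343 and 0.398 in xiphoid cartilage.

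The libraries numbered 2 carried more ribosomal RNA in both tissues, at 1.07% against 0.382% of counts in articular and 1.42% against 0.435% in xiphoid cartilage. Of 20 chains with a mean of at least 20 CPM in either tissue, 5 were more than 1.3 times higher in the library numbered 1 of both tissues (Col9a2, Col11a2, Col16a1, Col13a1 and Col27a1). The share of all genes with that pattern was not counted, so it is not shown to be particular to these chains. For Col9a2 the ratio of library 1 to library 2, as shares of all counts, was 1.78 in articular and 1.35 in xiphoid cartilage, and for Col11a2 it was 1.68 and 1.38. For the other 15 chains the ratio ranged from 0.919 to 1.55. Leaving the ribosomal RNA genes out of the fit changed no call among the tested chains. Whether RNA quality has a part in the values of these 5 chains was not tested.

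The widest difference of any chain was in the network class. Col8a1 (Entrez gene 304021), a chain of the short-chain type VIII collagen that forms hexagonal lattices under endothelia and in vessel walls, was at 6.94 and 7.45 CPM in articular and 1430 and 1374 CPM in xiphoid cartilage. The fitted xiphoid excess was 195-fold (log2 fold change -7.60, SE 0.20, adjusted p = 9.61e-11), from 58 counts in each articular library and 12157 and 10033 counts in the xiphoid libraries. Libraries of the same tissue lay close to each other, far from those of the other tissue. Col4a1, a chain of the type IV collagen of basement membranes, was at 120 and 125 CPM in articular and 325 and 308 CPM in xiphoid cartilage (2.58-fold, adjusted p = 7.95e-06). Its start and that of Col4a2 lie head to head, 77 bases apart in the RefSeq table, so that the Col4a1 window printed above also holds the start of Col4a2. The 11 markers of endothelial and mural cells, which lay down basement membrane, summed to 420 and 374 CPM in articular and 450 and 411 CPM in xiphoid cartilage, overlapping between the tissues. Cspg4 was most of each articular sum, and without it the sums were 171 and 162 CPM in articular and 224 and 213 CPM in xiphoid cartilage, which did not overlap. Of these markers, 2 passed toward articular, 3 toward xiphoid cartilage and 6 in neither direction. Over all genes tested, 25.0% were called toward articular and 24.5% toward xiphoid cartilage. Muscle fibres and fat cells also have basement membranes, and all 7 adipocyte markers and 9 of 10 skeletal muscle markers passed with a xiphoid excess, 2 and 6 of which passed the filter on low counts only there. Their part in the Col4a1 and Col8a1 values was not tested. Col4a3 and Col4a4, the other head-to-head pair, had at most 10 counts in any library and were not tested.

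Type VI collagen, the pericellular beaded filament, was represented by Col6a2. It was at 1006 and 849 CPM in articular and 1584 and 1497 CPM in xiphoid cartilage (1.66-fold, log2 fold change -0.73, SE 0.16, adjusted p = 0.00192), and did not pass against a fold of 1.5 (adjusted p = 0.176). Col6a4 had 1 count in all.

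The transmembrane collagens are cell-surface proteins with a collagen ectodomain, and the class held the largest articular fold among the tested chains, that of Col13a1, which passed the filter on low counts through articular cartilage only. Col13a1 (Entrez gene 499431), found at adhesion sites and neuromuscular junctions, was at 48.0 and 26.5 CPM in articular and 1.29 and 0.685 CPM in xiphoid cartilage. The log2 fold change was 5.18 (SE 0.40, adjusted p = 7.86e-07), a fold of 36.4. The articular libraries lay apart from each other, but both were far above the xiphoid libraries. The osteoblast and osteocyte markers moved the same way, and so did 8 of 10 blood and marrow markers, 5 of which passed that filter only there. Skeletal muscle markers went the opposite way, with 9 of 10 passing toward xiphoid cartilage. Over all genes tested, 25.0% were called toward articular and 24.5% toward xiphoid cartilage. The 10 blood and marrow markers summed to 6893 and 6916 CPM in articular and 590 and 643 CPM in xiphoid cartilage. The part of these cell types in the Col13a1 value was not tested. Col17a1, a hemidesmosome collagen of epithelia, and Col23a1 were low throughout. Col17a1 was at 0.718 and 0.128 CPM in articular and 6.47 and 4.11 CPM in xiphoid cartilage (log2 fold change -3.58 with an SE of 0.62, adjusted p = 4.53e-04). Its log2 fold change was -5.21 without articular replicate 1, where the articular side held 1 count, and -2.86 without articular replicate 2. Col23a1 was at 0.359 and 0.642 CPM in articular and 4.0 and 2.47 CPM in xiphoid cartilage (log2 fold change -2.68 with an SE of 0.60, adjusted p = 0.00295), and it did not pass without xiphoid replicate 1 (adjusted p = 0.0627).

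The multiplexins, collagens of basement membrane zones, gave 1 xiphoid excess and 1 chain that did not pass. Col15a1 was at 114 and 88.1 CPM in articular and 199 and 201 CPM in xiphoid cartilage (a fold of 1.98, adjusted p = 3.12e-04). Col18a1, the precursor of endostatin, was at 33.5 and 27.7 CPM in articular and 40.2 and 38.9 CPM in xiphoid cartilage (log2 fold change -0.37 with an SE of 0.17, adjusted p = 0.101). It did not pass with all libraries and passed without articular replicate 1 (-0.51, adjusted p = 0.0288). Col7a1, the anchoring fibril collagen of skin, had 1 to 11 counts per library and did not pass (adjusted p = 0.27). Col26a1 had 2 counts in all.

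Collagen chains are modified, trimmed, cross-linked, bound and degraded by dedicated proteins, and 48 genes of that kind were in the table. Of 46 tested, 22 passed toward articular, 16 toward xiphoid cartilage and 8 in neither direction, against the 25.0% and 24.5% of all genes tested. With 3 SOX transcription factors added, 23 and 16 of 49 passed. Against a fold of 1.5 the counts were 15 and 7 of 49, beside 1686 and 1538 of all 11202 genes tested. P4ha3, Mmp8, Mmp9 and Mmp13 passed the filter on low counts through 1 tissue only, so the counts describe the genes that were tested.

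**Figure D5:**
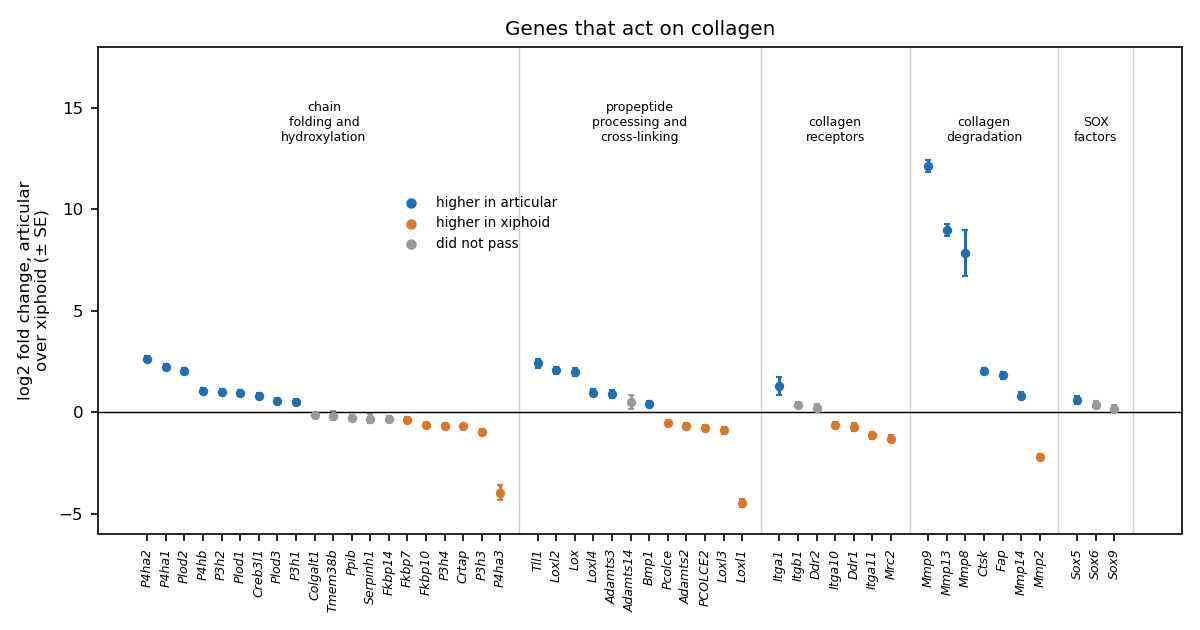
Fitted log2 fold change, articular over xiphoid cartilage, with bars of 1 SE, for the tested genes that fold, process, bind or degrade collagen and for 3 SOX factors. Mmp9, Mmp13 and Mmp8 stand highest, where the fitted values rest on few or no xiphoid counts, and Loxl1 and P4ha3 lie lowest.

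Of 20 tested genes for chain folding and hydroxylation, 9 had an articular and 6 a xiphoid excess and 5 passed in neither direction, with a median log2 fold change of -0.17 against -0.02 over all genes tested. Of all genes tested, 49.5% were called in either direction. Collagen prolyl 4-hydroxylase, which hydroxylates the proline residues that stabilize the helix, had catalytic subunits that differed in opposite directions. P4ha1 was at 900 and 884 CPM in articular and 196 and 188 CPM in xiphoid cartilage (4.64-fold, adjusted p = 1.63e-07). P4ha2 was at 751 and 672 CPM in articular and 112 and 117 CPM in xiphoid cartilage (6.21-fold, adjusted p = 5.03e-08). P4ha3 went the other way, at 3.35 and 1.16 CPM in articular and 43.2 and 29.0 CPM in xiphoid cartilage (log2 fold change -3.98 with an SE of 0.37, adjusted p = 4.17e-06), and its log2 fold change was -4.95 without articular replicate 1. Plod2, the lysyl hydroxylase of collagen telopeptides, was at 910 and 1108 CPM in articular and 242 and 257 CPM in xiphoid cartilage (4.04-fold, adjusted p = 7.83e-07). P3h3 and Crtap, of the prolyl 3-hydroxylase family and its complex, had a xiphoid excess of 1.97-fold and 1.63-fold (adjusted p = 2.45e-04 and 0.00126).

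Among 12 tested genes of propeptide processing and cross-linking, 6 had an articular and 5 a xiphoid excess and 1 passed in neither direction (median log2 fold change 0.46). The share called over all genes tested was 49.5%. Loxl2, a lysyl oxidase that cross-links collagen, was at 236 and 205 CPM in articular and 58.9 and 45.5 CPM in xiphoid cartilage (4.21-fold, adjusted p = 1.14e-06). Tll1, a protease that removes collagen C-propeptides, was at 39.7 and 38.9 CPM in articular and 7.88 and 6.99 CPM in xiphoid cartilage (5.27-fold, adjusted p = 1.42e-06). Lox was 3.93-fold higher in articular cartilage, and Loxl1, the family member tied to elastin, was 22.5-fold and Loxl3 1.87-fold higher in xiphoid cartilage. PCOLCE2, which speeds C-propeptide removal, was at 853 and 858 CPM in articular and 1477 and 1436 CPM in xiphoid cartilage (1.7-fold, adjusted p = 8.99e-04).

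Of 7 tested collagen receptors, 1 had an articular and 4 a xiphoid excess and 2 passed in neither direction (median log2 fold change -0.65). With 49.5% of all genes tested called, a split of so few genes says little about receptors as a set. Mrc2, an endocytic receptor that takes up collagen, was at 166 and 121 CPM in articular and 394 and 313 CPM in xiphoid cartilage (2.46-fold, adjusted p = 9.36e-05). Itga11 and Itga10, collagen-binding integrin subunits, had a xiphoid excess of 2.2-fold and 1.57-fold (adjusted p = 2.25e-04 and 0.00283). Itga1 was at 11.7 and 7.58 CPM in articular and 5.88 and 1.92 CPM in xiphoid cartilage (adjusted p = 0.0282), and it did not pass without articular replicate 1 (0.058) or without xiphoid replicate 2 (0.134), while its log2 fold change moved from 1.28 to 2.34 without xiphoid replicate 1.

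Of 7 tested collagen-degrading enzymes, 6 had an articular and 1 a xiphoid excess, against 25.0% and 24.5% of all genes tested. Of those 6, Mmp8, Mmp9 and Mmp13 passed the filter on low counts only through articular cartilage. At xiphoid levels that low, they were tested only because they were higher in articular cartilage. Ctsk, the collagenolytic cathepsin of osteoclasts, was at 537 and 523 CPM in articular and 134 and 125 CPM in xiphoid cartilage (4.1-fold, adjusted p = 3.15e-07). Mmp13, the collagenase that cleaves type II collagen, was at 669 and 804 CPM in articular and 2.00 and 0.822 CPM in xiphoid cartilage. Its log2 fold change was 8.97, and 9.79 without xiphoid replicate 1. Mmp9 was at 602 and 676 CPM in articular cartilage with 1 count in each xiphoid library. Mmp2 was the exception, 4.67-fold higher in xiphoid cartilage. The osteoblast, blood and marrow markers stood higher in articular cartilage as well, and their part in these values was not tested.

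Sox9, Sox5 and Sox6, the transcription factors that switch on Col2a1, Col9a1 and Col11a2 in chondrocytes, gave 1 articular excess and 2 genes that passed in neither direction. Sox9 was at 197 and 231 CPM in articular and 161 and 217 CPM in xiphoid cartilage, overlapping between the tissues (log2 fold change 0.18, SE 0.17, adjusted p = 0.415), and its log2 fold change was -0.014 without xiphoid replicate 1. Sox6 was at 50.1 and 54.5 CPM in articular and 44.9 and 36.2 CPM in xiphoid cartilage (log2 fold change 0.36 with an SE of 0.17, adjusted p = 0.095). Sox5 was at 41.5 and 59.1 CPM in articular and 30.2 and 36.0 CPM in xiphoid cartilage and passed (log2 fold change 0.60, SE 0.20, adjusted p = 0.0236), but not without articular replicate 2 (0.162) or without xiphoid replicate 1 (0.151). Sox6 passed without articular replicate 1 (adjusted p = 0.0463).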

How the data were processed

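RNA of 2 articular and 2 xiphoid cartilage samples was extracted with Trizol and sequenced, per the labels' protocols. The authors deposited expected counts of genes, not normalized, per the file headers. Of these values, 3.51% to 4.1% per library were not whole numbers. HISAT2 2.0.4, StringTie 1.2.1, Bowtie2 2.2.6, RSEM 1.2.12 and build rn6 are named in the submitters' processing notes, with no role or order, and the sources used here do not state a strand setting for counting. Of the 27 chains, 12 also list an assembled transcript in the deposited table.

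Expected counts were rounded, genes filtered with filterByExpr by tissue (11202 tested, 2352 not), libraries scaled by TMM, and each gene tested with the edgeR 4.0.16 quasi-likelihood test (robust) in R 4.3.3 with tissue as the only term. P-values were 2-sided and adjusted over all genes tested. SE is the size of the log2 fold change over the square root of F. CPM are TMM-scaled. On simulated data of this comparison with 11099 genes tested, 84% of 94 genes changed 2-fold and 100% of 106 changed 4-fold were recovered. Of 195 genes called there, 10 had not been changed. The changed genes excluded those of low count and all genes were given the same spread. Recovery of low or variable chains was therefore not measured. Alternatives used DESeq2 1.42.0 and limma 3.58.1 (voom), other scalings and filters, and each library left out.

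The chains, classes and gene lists were chosen with earlier results of these data known. All chains are accounted for. Values in all libraries are given for those with a mean of at least 20 CPM in either tissue or called with a fold above 4, and up to 3 genes per direction of each list of collagen-acting genes are named by lowest adjusted p. Lists of cell type markers were set beside a chain mainly where they moved with it. Protein sequences were not used here. Symbols were matched without regard to case.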

Additional observations from a re-analysis of the deposited data

How the results depend on the processing

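With 2 libraries a tissue, calls rest on spread shared across genes, and low chains such as Col17a1 rest on few reads. Of the 17 called chains, 12 kept their direction and stayed past the threshold under each of 15 alternatives. In 4 of these a library is left out, so that 1 tissue has a single library, which is assumed to vary like the libraries of the other tissue. In those fits and in that with a replicate block (below), many chains had far smaller adjusted p-values than in the main fit. Staying past the threshold there is therefore a weak check. Of the other 5, Col11a2, Col27a1, Col5a1 and Col6a2 did not pass against a fold of 1.5, and Col23a1 and again Col5a1 did not pass without xiphoid replicate 1. RLE, upper-quartile and unscaled library sizes, scaling without the collagen rows, DESeq2, limma-voom, both other count filters where the chain was still tested, and leaving out the ribosomal RNA rows (added after seeing the data) changed no call of a chain. When a library was left out, the share of counts held by all chains was 10.8% or 12.8% in articular and 3.73% or 4.1% in xiphoid cartilage. The log2 fold change of Col9a2 ranged from -0.066 to 0.776 and that of Sox9 from -0.014 to 0.42 as each library was left out, the lowest without articular replicate 1 and xiphoid replicate 1, respectively. Against a fold of 1.5 the calls among the collagen-acting genes and 3 SOX factors together were 15 and 7, in place of 23 and 16. All genes tested numbered 3224 called against a fold of 1.5 and 5545 otherwise.

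The sample numbers are shared between the tissues, and deviations from the tissue mean of the same-numbered libraries correlated at 0.54 across the 5926 genes above a mean of 20 CPM and at 0.24 across all genes tested, but nothing in the labels says that a number marks a shared animal or day. With a replicate block, 7 chains were higher in articular and 14 higher in xiphoid cartilage. The block also raised the share of all genes tested that were called, from 49.5% to 61%. The chains that then passed were Col9a2 (0.37, adjusted p = 1.73e-05), Col5a2 (-0.30, adjusted p = 0.00276), Col18a1 (-0.37, adjusted p = 0.0246) and Col1a2 (-0.18, adjusted p = 0.0402). The block leaves fewer degrees of freedom to measure the spread, yet its adjusted p-values could be far smaller. For Col2a1 the adjusted p was 9.18e-251 with the block and 1.56e-07 in the main fit. Calls made only with the block are therefore weak. Levels per coding length had been planned and were not run, because no lengths were used here.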

Other observations

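In the pathway column of the deposited table, 14 of the 27 collagen chains, Col2a1, Col1a1 and Col3a1 among them, carry the KEGG definition amyloid beta A4 protein. The same definition stands beside 13 genes that are not collagen chains, App among them. Col8a1 carries the definition of type X collagen, and Col6a2, Col6a4 and Col18a1 that of integrin beta 1. Col16a1 carries that of brain-specific angiogenesis inhibitor 2.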
